A study of Drosophila melanogaster with 12 samples.

Results

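The comparison described here is of wing discs whose transgenic ASH1 lacked the BAH domain (ΔBAH) with discs whose transgenic ASH1 was full-length (ASH1 WT). Its members were chosen by the genotype in the labels and are 3 ΔBAH and 3 ASH1 WT libraries, 6 of the 12 in the series. All were made from mRNA of wing discs of 3rd instar Drosophila melanogaster larvae, and the replicates of a genotype were independent RNA preparations. Both lines shared the w[1118] background and the mutant allele combination ash1[10]/ash1[22], and both carried a transgene marked with w+ that expresses an EGFP::ASH1 fusion from the alpha-tubulin promoter, which is active in most cells. The transgenes were integrated at the same site on 2L, and they differ in the deletion of a C-terminal part with the BAH domain. The remaining libraries, 3 of wild type (w[1118]) and 3 of a line in which the first AT hook of the ΔBAH protein was also mutated (ΔBAH mutAT1), are given only as reference levels. As both lines are rescue lines, the transgene is not expressed under the control of the ash1 promoter. The larvae may also contain protein from the ash1[10] allele, which encodes a full-length protein with a point mutation in the catalytic domain. According to the study, the BAH domain and AT hooks of that protein are not impaired. How many larvae contributed to each preparation is not given in the sources used here.

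ASH1 is a histone methyltransferase of the Trithorax group, which acts on lysine residues of histone H3 and keeps developmental genes active in the cells where they were switched on, against silencing by the Polycomb group. Loss of ash1 is known for homeotic transformations of imaginal discs. BAH domains are protein modules found in many chromatin regulators, where they contact nucleosomes or other proteins. The question of the comparison is which transcripts differ between the line whose transgenic ASH1 lacks the BAH domain and the line with the full-length transgene. The labels name no further line of either genotype. Other differences between the lines therefore cannot be told apart from an effect of the deletion, for any gene named below.

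Depth was 29221680, 16662623 and 17828101 counts in replicates 1, 2 and 3 of ASH1 WT and 27871145, 16534245 and 15083960 counts in those of ΔBAH, and between 9018 and 9668 genes had at least 1 count. The wing disc identity of the libraries was checked on 12 marker genes, of which 10 were matched to the table, and all 10 were expressed. The selector gene vg, for example, had 175, 291 and 274 CPM (counts scaled to the adjusted library size) in ASH1 WT and 171, 296 and 291 CPM in ΔBAH. The median log2 fold change of the 10 markers between the lines was 0.02.

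The largest differences among the 6 libraries did not follow genotype. The library numbers in the labels fall into blocks, with replicate 1 of both lines in one block and replicates 2 and 3 of both lines in another. Between libraries of different blocks, the median absolute log2 difference over genes was 0.562 to 0.687, whether or not the genotypes were the same, and 1882 to 2707 genes differed more than 2-fold. Within a block, the values were 0.133 to 0.204 between the genotypes, with 343 to 658 genes past 2-fold. Within a block and a genotype they were 0.187 for ASH1 WT and 0.16 for ΔBAH. Pairs of different genotypes within a block thus spanned the values found between replicates of a genotype within a block, on both sides.

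**Figure D1:**
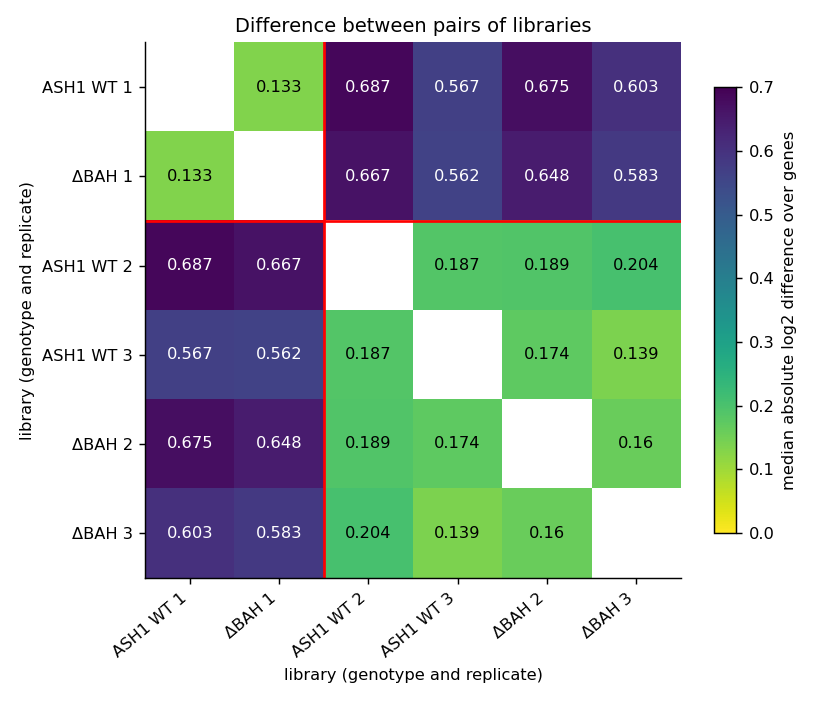
Median absolute log2 difference over genes between each pair of the 6 libraries, with both axes giving genotype and replicate and the red lines separating the library-number blocks. Pairs within a block lie at 0.133 to 0.204 and pairs across blocks at 0.562 to 0.687, for both genotypes.

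A pair of models was therefore read side by side. The first, with a term for genotype only and all 12 libraries, had a coefficient of variation between replicates of 32%, and a median standard error (SE) of 0.289 on the log2 scale. The second, in which the 6 libraries were paired by replicate number (the paired model), had a coefficient of variation of 9% and a median SE of 0.097. Within a block, the matching of libraries was by number only.

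The targeted gene, ash1 (FBgn0005386, on 3L from 19590773 to 19598755), was counted over its whole length, so transcripts of the mutant alleles and of the transgene are summed. Its level was 233.6, 534.3 and 463.4 CPM in ASH1 WT replicates 1 to 3, and 154.5, 447.9 and 388.2 CPM in ΔBAH. The groups overlapped, and replicate 1 was the lowest library of each line. The 3 wild-type libraries lay between 85.6 and 112.2 CPM. Within pairs, ΔBAH was lower in 3 of 3, by -0.60, -0.25 and -0.26 on the log2 scale. The log2 fold change was -0.31 in the genotype model (95% interval -1.25 to 0.63) and -0.37 in the paired model (-0.55 to -0.19), where edgeR gave an adjusted p of 0.173. Without ΔBAH replicate 1 the first value became 0.03. The transgenic transcript of ΔBAH lacks the deleted part, so its level is understated, by an amount not computed here, and the counts per gene do not show the deletion itself.

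In the genotype model, 0 of 8346 genes passed an adjusted p below 0.05 (quasi-likelihood test of edgeR), and 103 genes (1.23%) had an unadjusted p below 0.05. DESeq2 called 5 genes (w, RluA-1, CG34141, lectin-24Db and CG3253), and limma-voom called 2 (w and RluA-1). The median absolute log2 fold change was 0.103. The 95% interval of the difference lay within 2-fold for 5594 genes (67.0%), and within 1.5-fold for 2777 genes (33.3%). Without the filter on low counts the share within 2-fold was 47.4%, and with limma-voom on all genes it was 37.6%. In the paired model, 5 of 7857 genes passed the adjusted p (0.0636%), 3 higher in ΔBAH (0.0382%) and 2 lower (0.0255%). At an unadjusted p below 0.01 there were 243 genes (3.09%), against 26 (0.312%) in the genotype model. Pairing gave 825 genes (10.5%) with an unadjusted p below 0.05, 376 of them higher (4.79%) and 449 lower (5.71%). The interval lay within 2-fold for 6932 genes (88.2%) and within 1.5-fold for 6188 (78.8%).

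The 5 genes called in the paired model were w, RluA-1, CG34141, CYLD and Cyp4p1. All 3 ΔBAH libraries lay on one side of all 3 ASH1 WT libraries for each of the 5, as they did for 341 of 8346 genes (4.09%) in total, 142 of them higher (1.70%) and 199 lower (2.38%) in ΔBAH.

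The gene w (white, FBgn0003996, on X from 2790599 to 2796466) encodes a subunit of an ABC transporter for eye pigment precursors and is the marker gene of the transgenes. It had 0.984, 0.308 and 0.227 CPM in ASH1 WT, and 36.8, 33.1 and 31.0 CPM in ΔBAH. The log2 fold change was 5.93 in the genotype model (SE 0.78, adjusted p of 0.0575 in edgeR's test) and 5.91 in the paired model (SE 0.27, adjusted p of 2.09e-06). Wild type had 0.63, 3.94 and 0.554 CPM, and ΔBAH mutAT1 had 43.1, 46.6 and 35.2 CPM. The ASH1 WT line was thus at the level of the line without a transgene, although the labels give a w+ marker for each of the 3 transgenic lines. Reads of the marker and of the endogenous locus cannot be told apart in counts per gene. The neighbouring gene kirre, which overlaps w in the annotation, had a log2 fold change of 0.17 in the paired model (SE 0.11), and CG32795, 32 bp away, had 0.01 (SE 0.08).

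RluA-1 (FBgn0051719, on 2L from 10463340 to 10474349), a member of the RluA family of pseudouridine synthases, was not detected in ΔBAH. It had 59, 77 and 136 counts in ASH1 WT, and 0 in each of the 3 ΔBAH libraries. The level in ASH1 WT was 4.84 ± 2.83 CPM (SD, n = 3). Against a floor of 3 counts in each ΔBAH library it was at least 29.7-fold lower in ΔBAH. Its adjusted p was 0.0575 in the genotype model and 0.00671 in the paired model of edgeR. The wild-type libraries had 5, 1 and 0 counts, and those of ΔBAH mutAT1 had 186, 260 and 140. RluA-1 was thus at or near 0 in ΔBAH and wild type and present in all 6 libraries of ASH1 WT and ΔBAH mutAT1. Its paralogue RluA-2, 2724 bp away, had a log2 fold change of 0.01 in the paired model (SE 0.1).

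CYLD (FBgn0032210, on 2L from 10295859 to 10299847), a deubiquitinase, lies 163.5 kb from RluA-1. It was close to constant within each line, at 28.2, 30.1 and 28.8 CPM in ASH1 WT and 44.9, 44.7 and 45.7 CPM in ΔBAH. CYLD had a log2 fold change of 0.63 in both models, with a SE of 0.15 in the genotype model and 0.09 in the paired model (adjusted p of 1.0 and 0.0431 in edgeR). With the library-number block as a covariate in all 12 libraries, its adjusted p was 0.27. The wild-type libraries spanned 36.9 to 44.9 CPM and those of ΔBAH mutAT1 spanned 23.6 to 34.3 CPM, so the ΔBAH libraries were above those of ΔBAH mutAT1 and near the upper end of wild type.

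CG34141 and Cyp4p1 lie 18.1 kb apart on 2R and differed in opposite directions. CG34141 (FBgn0083977, from 9260278 to 9263971) had 2.32, 1.66 and 1.42 CPM in ASH1 WT and 9.34, 6.37 and 5.50 CPM in ΔBAH. Its log2 difference was 1.97 in both models (SE 0.32 in the genotype model and 0.26 in the paired model, adjusted p of 0.237 and 0.0242 in edgeR), and the 3 pairs gave 1.96, 1.88 and 1.88. The mean of CG34141 was 0.945 ± 0.142 CPM in wild type and 1.87 ± 0.465 CPM in ΔBAH mutAT1 (SD, n = 3), and no library of either reached those of ΔBAH.

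Cyp4p1 (FBgn0015037, from 9240041 to 9242139), a cytochrome P450, had 42.9, 48.2 and 36.5 CPM in ASH1 WT and 23.7, 27.2 and 24.1 CPM in ΔBAH. Its log2 difference was -0.77 in both models, with an adjusted p of 1.0 in the genotype model, 0.0242 in the paired model and 0.788 with the library-number block in 12 libraries, all from edgeR. Wild type had 0.404 ± 0.292 CPM (SD, n = 3), and ΔBAH mutAT1 had 24.0 ± 4.66 CPM. Every library of the 3 transgenic lines was thus above every wild-type library. Cyp4p1 belongs to a cluster of related genes and its counts are uncertain to the extent that reads match several members. In the paired model, the adjacent Cyp4p2 had a log2 fold change of -0.42 (SE 0.07, adjusted p of 0.0576 in edgeR) and Cyp4p3 had -0.98 (SE 0.57).

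**Figure D2:**
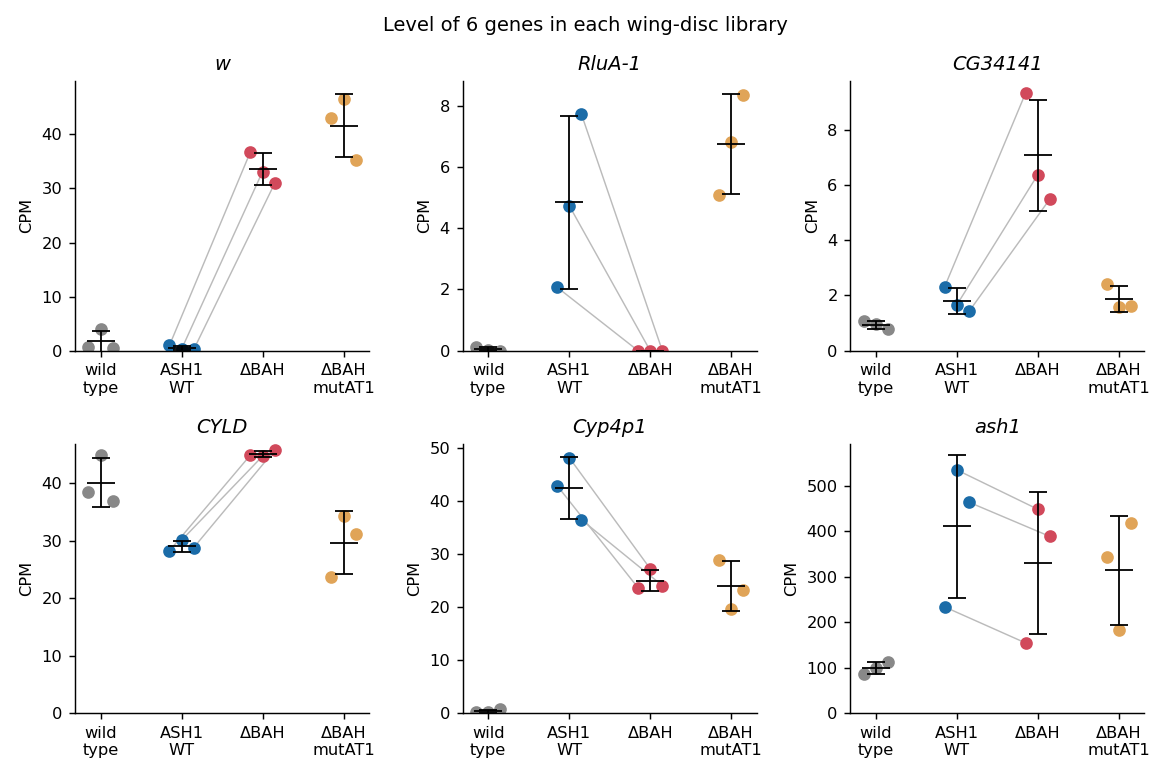
CPM of 6 genes in each of the 12 libraries, with 1 point per library, the mean and SD (n = 3) as black bars, and grey lines joining ASH1 WT and ΔBAH libraries of the same replicate number. RluA-1 is at 0 in the 3 ΔBAH libraries, w is high in both ΔBAH lines, and the ash1 levels of ASH1 WT and ΔBAH overlap.

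Genes near these 5 were tested as well. Of the 22 genes tested within 50 kb of RluA-1, 3 were lower and 1 was higher in ΔBAH at an unadjusted p below 0.05 in the paired model, where 10.5% of all genes passed in either direction. LManII, a lysosomal alpha-mannosidase gene 868 bp from RluA-1, had a log2 fold change of -0.61 (SE 0.11, adjusted p of 0.111 in edgeR). Nse4, 22293 bp away, had -0.5 (SE 0.14), and Bug22, 32422 bp away, had -0.22 (SE 0.09). RfC3, a subunit of the clamp loader of DNA replication, had 0.31 (SE 0.11). Around CYLD, 2 of 28 genes were past the same threshold, both lower, namely CG4972 at -0.23 and the JNK gene bsk at -0.21 (SE 0.07 each). Around Cyp4p1 and CG34141 the neighbours past it were these genes themselves and Cyp4p2. The median log2 fold change of the neighbours lay between -0.04 and 0.09 for the 5 genes.

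**Figure D3:**
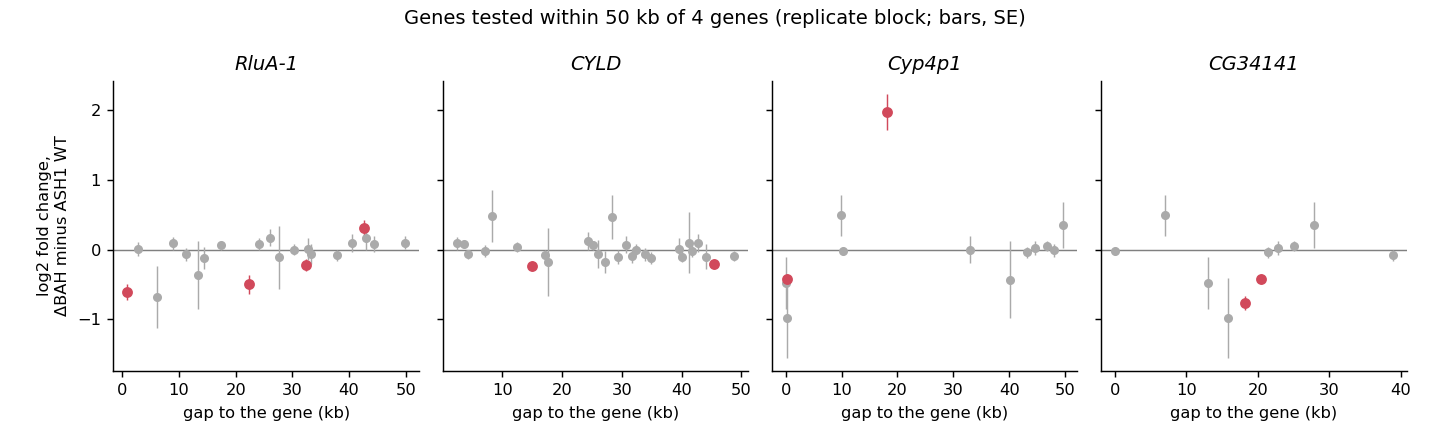
Log2 fold change in the paired model (y axis) of the genes tested within 50 kb of RluA-1, CYLD, Cyp4p1 and CG34141, against the gap to that gene in kb (x axis), with SE as bars and genes at an unadjusted p below 0.05 in red. Most neighbours lie close to 0, and the exceptions include LManII at -0.61 beside RluA-1 and Cyp4p2 at -0.42 beside Cyp4p1.

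At the thresholds of a 2-fold difference and an unadjusted p below 0.01 in the genotype model, 9 genes were higher (0.108%) and 13 lower (0.156%) in ΔBAH, and 9 and 19 in the paired model. Leaving out 1 library at a time gave 4 to 10 higher and 7 to 21 lower genes. The 9 higher genes were w, CG34141, CG3253, St3, CG6785, CG10339, CG10738, CG4630 and CG14054. Their adjusted p was 1.0 in the genotype model of edgeR, except for w and CG34141.

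CG3253 (on 2R) had 6.67, 3.14 and 4.83 CPM in ASH1 WT and 13.7, 8.0 and 11.7 CPM in ΔBAH, with a log2 fold change of 1.18 (SE 0.28). Its adjusted p in the paired model of edgeR was 0.0576, and in the DESeq2 Wald test with genotype only it was 0.0394. St3, a sulfotransferase gene, had 2.81, 1.72 and 2.16 CPM in ASH1 WT and 10.4, 4.57 and 5.70 CPM in ΔBAH, a log2 fold change of 1.62 (SE 0.39). The wild-type libraries of St3 lay between 2.46 and 5.44 CPM. CG6785 (on 2L) was close to constant within each line, with 2.85, 2.46 and 2.67 CPM in ASH1 WT and 5.4, 5.47 and 5.23 CPM in ΔBAH (log2 fold change 1.01, SE 0.26). In wild type and ΔBAH mutAT1, CG6785 had means of 2.73 and 2.99 CPM, and no library of either reached those of ΔBAH.

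The other 4 higher genes had few counts. CG10339, 33.9 kb from CG3253, had 10, 7 and 12 counts in ASH1 WT and 40, 26 and 18 in ΔBAH. CG10738 had 8, 8 and 4 counts against 26, 17 and 20, and CG14054 had 5, 3 and 8 against 28, 17 and 20. CG4630 had 0.826 ± 0.367 CPM in ASH1 WT and 2.17 ± 0.286 CPM in ΔBAH (SD, n = 3). The log2 fold changes of these 4 genes lay between 1.36 and 2.05.

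Of the 13 lower genes, RluA-1 is described above. The C-type lectin gene lectin-24Db (on 2L) had 4.0, 4.80 and 3.41 CPM in ASH1 WT and 0.322, 1.38 and 0.939 CPM in ΔBAH. Its log2 difference was -2.24 (SE 0.5) in the genotype model and -2.37 (SE 0.44) in the paired model, with adjusted p of 1.0 and 0.111 in edgeR. The DESeq2 Wald test with genotype only gave an adjusted p of 0.0258. The wild-type mean of lectin-24Db was 1.25 ± 0.286 CPM and that of ΔBAH mutAT1 was 7.30 ± 3.14 CPM (SD, n = 3). As for RluA-1, the level in ΔBAH was near that of wild type, and the other transgenic lines were higher.

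The gene Tep1 (on 2L), which encodes a thioester-containing protein of innate immunity, had 2.99, 5.04 and 4.26 CPM in ASH1 WT and 1.61, 1.20 and 0.939 CPM in ΔBAH. The log2 fold change was -1.69 (SE 0.45) in the genotype model and -1.65 (SE 0.37) in the paired model, with adjusted p of 1.0 and 0.178 in edgeR. Karl (on X), a lipocalin gene, had 4.88, 4.24 and 5.0 CPM against 2.11, 2.59 and 2.15 CPM, a log2 fold change of -1.05 (SE 0.27). The ecdysone synthesis gene sad (shadow, on 3R), which encodes a P450 hydroxylase, had 2.67, 3.44 and 2.95 CPM against 1.47, 1.44 and 1.34 CPM, a log2 fold change of -1.09 (SE 0.3). CG33465 (on 2R) had 2.67, 3.20 and 2.16 CPM against 0.751, 1.14 and 1.21 CPM, a log2 fold change of -1.38 (SE 0.46, unadjusted p of 0.0117 in edgeR). The genes sad, Tep1 and CG33465 are named in the study from these libraries, so they are not independent evidence of a direction.

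CG7565 (on 3L) had 1.58, 2.40 and 1.65 CPM in ASH1 WT and 0.179, 0.902 and 0.603 CPM in ΔBAH, and its log2 fold change was -1.79 (SE 0.46). The wild-type libraries of CG7565 lay between 15.3 and 16.3 CPM, above all libraries of both lines. CG12177 (on X) had 3.46 ± 1.16 CPM in ASH1 WT and 1.45 ± 0.412 CPM in ΔBAH (SD, n = 3). CG3649 (on 2R) was below the 2-fold threshold but had one of the smallest p, with 25.8, 25.2 and 24.1 CPM in ASH1 WT and 12.2, 17.7 and 12.6 CPM in ΔBAH (log2 fold change -0.82, SE 0.21). CG3649 had 28.4 ± 4.3 CPM in wild type and 24.6 ± 4.88 CPM in ΔBAH mutAT1 (SD, n = 3), so that again ΔBAH was the lowest of the 4 genotypes.

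Of the genes with few counts, FBgn0033857, which has no symbol in the annotation used, had 30, 25 and 28 counts in ASH1 WT and 7, 6 and 2 in ΔBAH. Sfp78E, a seminal fluid protein gene, had 30 counts in total in ASH1 WT and 3 in ΔBAH, a ratio of 9.55 per depth with a counting interval of 2.97 to 48.9. The remaining 4 lower genes past both thresholds, named after their values were seen, were Cyp6a17, ry, CG30046 and FBgn0039005. The genes Cyp6a17, ry and FBgn0039005 had at most 3 counts in at least 1 of the 6 libraries, and no fold is given for them.

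**Figure D4:**
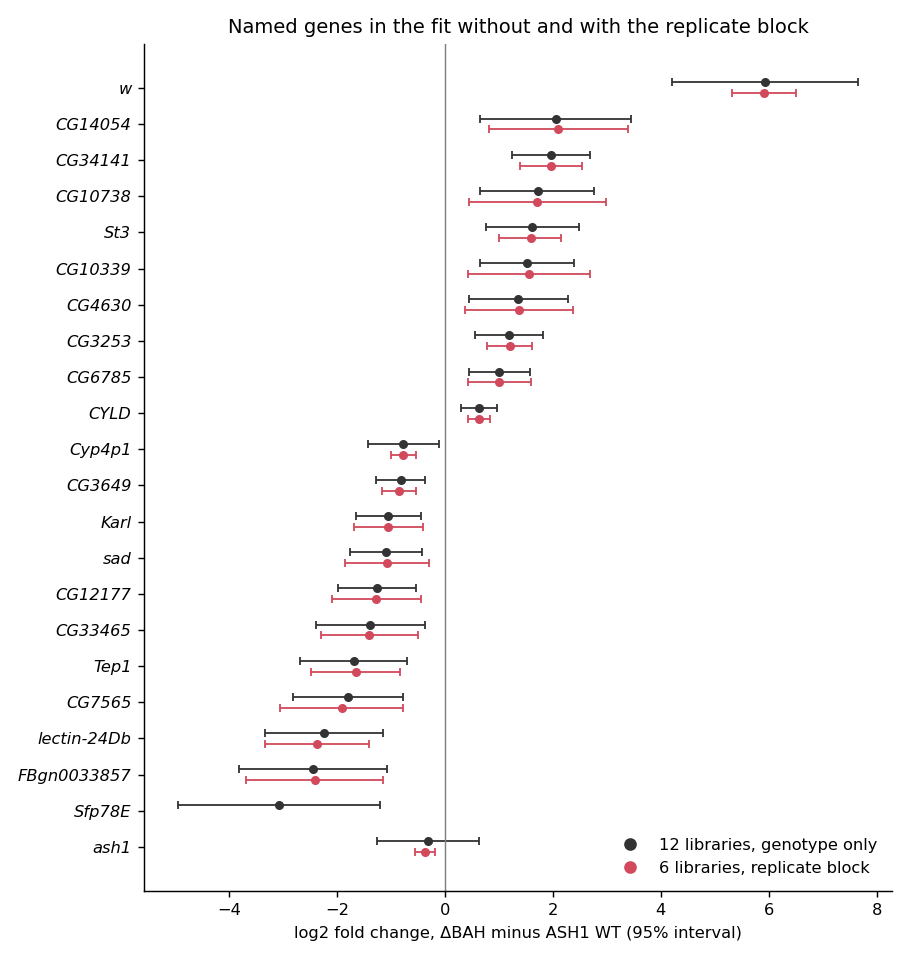
Log2 fold change of ΔBAH against ASH1 WT with its 95% interval (x axis) for ash1 and 21 named genes (y axis), in the genotype model with 12 libraries (black) and in the paired model with 6 libraries (red). The estimates of both models lie close together. The intervals of CYLD, Cyp4p1, w and ash1 are among those that are narrower in the paired model. Those of sad, CG7565, CG10339, CG10738, CG12177 and CG4630 are among those that are wider. RluA-1 is left out because it has no counts in ΔBAH, and the paired model did not test Sfp78E.

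Gene groups related to the known role of ASH1 were read list by list. Of the 8 Hox genes, which specify segment identity, 4 passed the filter on low counts. Among the 4, 0 were past an unadjusted p below 0.05 in the genotype model (1.23% of all genes). Antp, the Hox gene of the thorax, had 114, 173 and 133 CPM in ASH1 WT and 119, 136 and 141 CPM in ΔBAH (log2 fold change -0.08, SE 0.16). Ubx, which specifies the haltere, had 8.26, 8.61 and 8.24 CPM against 8.26, 8.96 and 9.65 CPM, a log2 fold change of 0.09 in the paired model with a 95% interval of -0.30 to 0.48. Scr was low, with 0.316, 0.246 and 0.454 CPM in ASH1 WT and 0.823, 0.722 and 0.939 CPM in ΔBAH, and its libraries did not overlap. In the paired model its log2 fold change was 1.29 (SE 0.58, unadjusted p of 0.0476 and adjusted p of 0.47 in edgeR). The head gene lab had 13, 7 and 11 counts in ASH1 WT and 12, 6 and 1 in ΔBAH, a log2 fold change of -0.75 with an interval of -2.38 to 0.88, and the interval lay within 2-fold for 1 of the 4 genes in the genotype model. Another Hox gene, pb, was at 0 in all 6 libraries, and Dfd, abd-A and Abd-B were below the filter, with the highest value, 1.02 CPM, for Abd-B in ΔBAH replicate 2.

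Of 21 Polycomb group genes, which maintain silencing, 19 were tested. Past an unadjusted p below 0.05 were 0 of the 19 in the genotype model (1.23% of all genes) and 0 in the paired model (10.5%). The median log2 fold change of the 19 was -0.01 in the genotype model, beside -0.004 over all genes. For all 19 the interval in the paired model lay within 2-fold (88.2% of all genes). The smallest p in each direction belonged to pho, which encodes a DNA-binding recruiter of the group (-0.12, SE 0.18), and to crm (0.17, SE 0.13). Of 20 Trithorax group genes tested, 0 passed in the genotype model (1.23% of all genes), and 5 passed the unadjusted threshold in the paired model (10.5% of all genes) with adjusted p of 0.195 or above in edgeR. These were e(y)3 (0.29), kto (0.20), Kdm5 (0.21) and ash2 (0.18), higher in ΔBAH, and Trl, which encodes the GAGA factor (-0.27, SEs 0.06 to 0.11). Their intervals all lay within 2-fold.

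Among ASH1 partners and enzymes of histone H3 methylation, 8 of 10 were tested. Besides ash1 itself, 4 had an unadjusted p below 0.05 in the paired model, and all were higher in ΔBAH (4.79% of all genes). The list median was 0.16 in the genotype model and -0.17 without ASH1 WT replicate 1. The methyltransferase gene Set2 had 55.7, 141 and 126 CPM in ASH1 WT and 65.0, 167 and 150 CPM in ΔBAH. The groups overlapped, ΔBAH was higher in each pair, and the log2 fold change was 0.24 (SE 0.07). The demethylase genes Kdm2 and Kdm4B had log2 fold changes of 0.26 (SE 0.07) and 0.27 (SE 0.1), and fs(1)h, a BET family gene, had 0.19 (SE 0.08). Their smallest adjusted p was 0.246, for Kdm2. MRG15, a subunit of the ASH1 complex, had -0.09 (SE 0.1). In the genotype model 0 of the 8 were past an unadjusted p below 0.05 (1.23% of all genes).

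The wing patterning genes were at like levels in both lines. Among 11 genes of the anterior-posterior system (Hedgehog and Dpp signalling), the median log2 fold change was -0.03. Past an unadjusted p below 0.05 were 0 of the 11 in the genotype model (1.23% of all genes) and 0 in the paired model (10.5%). The posterior selector en had 125, 138 and 118 CPM in ASH1 WT and 145, 116 and 132 CPM in ΔBAH, and dpp had 78.3, 163 and 133 CPM against 91.0, 130 and 134 CPM. Among 10 dorsal-ventral genes, 1 was past the threshold in the paired model (10.5% of all genes), the Notch target E(spl)mbeta-HLH (-0.16, SE 0.07). Of 14 proximal-distal and notum selectors, tup, a notum selector, was higher in all 3 ΔBAH libraries than in any of ASH1 WT. Its level was 30.2, 34.7 and 30.3 CPM in ASH1 WT and 35.5, 39.9 and 37.8 CPM in ΔBAH. In the paired model tup had a log2 fold change of 0.25 (SE 0.09, unadjusted p of 0.0225 in edgeR), and Doc1 had -0.23 (SE 0.1).

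Of 10 vein and proneural genes, 3 were lower in ΔBAH at an unadjusted p below 0.05 in the paired model (5.71% of all genes). The proneural gene sc had a log2 fold change of -0.30 (SE 0.11) and bs, which acts in intervein cells, had -0.21 (SE 0.08). The sensory organ precursor gene sens had 12.8, 13.5 and 11.5 CPM in ASH1 WT and 8.09, 10.0 and 11.1 CPM in ΔBAH, without overlap, a log2 fold change of -0.39 (SE 0.17). None of the 3 had an adjusted p below 0.367 in edgeR.

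In the lists around sad, Tep1 and Karl, the difference did not extend to all members. Of the other ecdysone synthesis genes, dib had 1.16, 0.677 and 0.511 CPM in ASH1 WT and 1.40, 1.62 and 1.34 CPM in ΔBAH (log2 fold change 0.87, SE 0.57), and shd had -0.08 (SE 0.54) in the genotype model, while spo and spok were at or near 0. Among the ecdysone response genes, 15 were tested and the median log2 fold change was 0. The nuclear receptor gene ftz-f1 had 6.22, 19.9 and 20.6 CPM in ASH1 WT and 12.8, 32.3 and 24.1 CPM in ΔBAH, with 0.64 in the paired model (SE 0.16, adjusted p of 0.199 in edgeR). ImpE2 had 4909.6, 5842.5 and 5257.9 CPM against 4052.3, 3455.6 and 4795 CPM, with -0.39 (SE 0.11) in the same model. Of the other thioester-containing proteins, Tep2 had -0.30 (SE 0.08), and Tep3, Tep4 and Mcr lay between -0.09 and 0.01 in the paired model. Of the other lipocalins, NLaz had 1.26, 0.615 and 0.795 CPM in ASH1 WT and 0.644, 0.241 and 0.134 CPM in ΔBAH, with -1.40 (SE 0.59) in the paired model, and GLaz had 0.10 (SE 0.2). Of 13 antimicrobial peptide genes matched, 2 passed the filter, with DptA at 15, 0 and 3 counts in ASH1 WT and 0 in ΔBAH, and Def at 24, 0 and 0 counts against 6, 2 and 2.

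Of 6 heat shock protein genes tested in the paired model, 1 was higher and 2 were lower in ΔBAH at an unadjusted p below 0.05 (all genes, 4.79% and 5.71%). Hsp68 had 6.96, 6.33 and 11.5 CPM in ASH1 WT and 19.2, 9.50 and 12.3 CPM in ΔBAH, with 0.74 in the paired model (SE 0.24). Hsp23 and Hsp26 had -0.16 and -0.21 (SE 0.07 each). Of the damage and JNK genes, Ilp8, an insulin-like peptide released by damaged discs, was uneven, with 6.43, 0 and 0.682 CPM in ASH1 WT and 9.73, 0 and 2.35 CPM in ΔBAH. Mmp1, a JNK target, had 85.5, 90.5 and 87.3 CPM against 89.6, 105 and 98.4 CPM, a log2 fold change of 0.15 (SE 0.11), and Gadd45 had -0.30 in the paired model (SE 0.12). Of 19 cell cycle genes, only the phosphatase gene stg was past an unadjusted p below 0.05 in the paired model (0.24, SE 0.06). Over all genes 10.5% were past it. All 19 intervals in that model lay within 2-fold (88.2% of all genes).

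**Figure D5:**
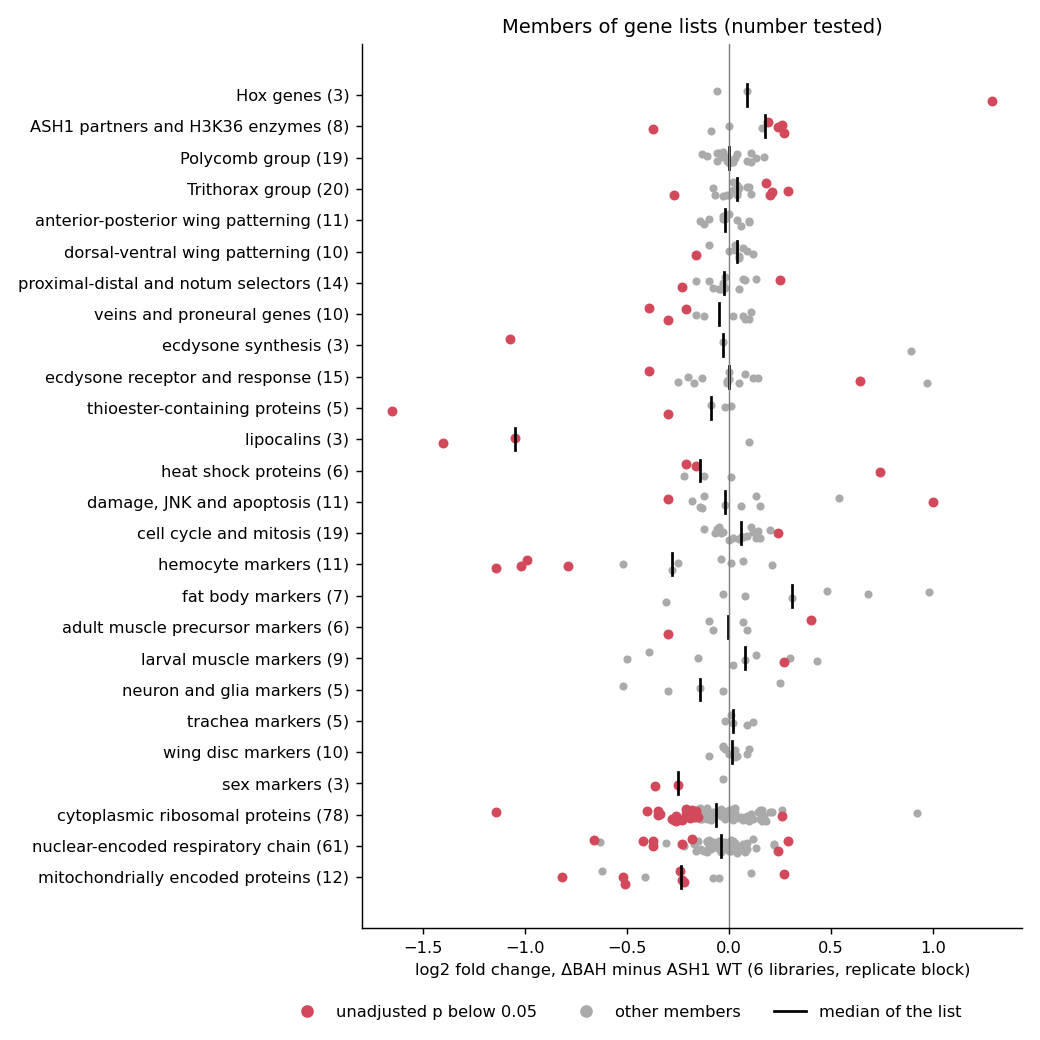
Log2 fold change of each tested list member in the paired model (x axis), by gene list with the number tested (y axis), with members at an unadjusted p below 0.05 in red and the list median as a black line. Polycomb, patterning and cell cycle genes lie close to 0, and hemocyte markers and lipocalins include members near or below -1. Antimicrobial peptides and salivary gland markers are not drawn because the paired model tested at most 1 of each.

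Markers of other cell types that a disc preparation can carry differed between the libraries. For hemocytes, the larval blood cells, 11 of 12 markers were matched and tested. Their summed level was 237.6 to 303.3 CPM in ASH1 WT and 213.5 to 288.1 CPM in ΔBAH, and none was at 0 in all 6 libraries. At an unadjusted p below 0.05 in the paired model, 4 were lower in ΔBAH and 0 higher (5.71% and 4.79% of all genes), and the median was -0.28. In each model the log2 fold change was negative for 8 of the 11 markers and positive for 3. The members named next are among the lower ones. Hml had 12.3, 29.5 and 14.0 CPM in ASH1 WT and 14.0, 11 and 5.90 CPM in ΔBAH, and srp had 5.80, 10.2 and 4.94 CPM against 5.47, 2.23 and 2.55 CPM. He and PPO2 had -1.14 and -0.99 (SEs 0.46 and 0.42). For Hml and srp, the lower values in ΔBAH lay mainly in replicates 2 and 3. Tep1 had differences of -0.85, -1.98 and -2.07 on the log2 scale in pairs 1 to 3, and lectin-24Db had -3.28, -1.72 and -1.76. The part of hemocytes in the lower levels of Tep1 and lectin-24Db was not tested, and in bulk tissue fewer cells of a type and less RNA per cell cannot be told apart.

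Salivary gland markers, 5 of 6 tested, summed to 0.0568 to 4.07 CPM in ASH1 WT and 0.268 to 18.7 CPM in ΔBAH, the highest in ΔBAH replicate 2. Fat body markers spanned 16.7 to 113.8 CPM in ASH1 WT and 43.2 to 176.6 CPM in ΔBAH. Of the 7, 0 were past an unadjusted p below 0.05 in the genotype model (1.23% of all genes) or the paired model (10.5%). Markers of adult muscle precursors overlapped at 224 to 288.6 CPM and 236.9 to 284.7 CPM, as did those of trachea, larval muscle, and neurons and glia. Within the muscle precursor list, htl had -0.30 (SE 0.1) and Him 0.40 (SE 0.17) in the paired model, and among larval muscle markers sls had 0.27 (SE 0.08).

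The X-linked roX RNAs are made in males and target dosage compensation to the X. In the genotype model 0 of the 3 sex markers tested had an unadjusted p below 0.05 (1.23% of all genes). The list median of -0.24 lay between -0.27 and -0.04 with 1 library left out. The roX1 RNA had 652, 711 and 654 CPM in ASH1 WT and 579, 635 and 493 CPM in ΔBAH, without overlap, and a log2 fold change of -0.25 in the paired model (SE 0.07, unadjusted p of 0.0058 and adjusted p of 0.282 in edgeR). The roX2 RNA had -0.36 (SE 0.12), and msl-2 had -0.03 (SE 0.08). Of 1238 genes tested on X in the paired model, 96 were higher and 51 lower in ΔBAH at an unadjusted p below 0.05 (all genes, 4.79% and 5.71%). X was the only one of the 5 large arms with more higher than lower genes. The 670 tested genes without an annotated arm leaned the same way, with 50 higher and 34 lower. On 2L, 2R, 3L and 3R the higher and lower genes numbered 58 and 87, 66 and 89, 44 and 94, and 61 and 84. The genes tested on these arms numbered 1264, 1436, 1431 and 1736. In the genotype model X had 6 higher and 7 lower genes. The part of a different share of male larvae in these values was not tested. By arm, the share of genes past an unadjusted p below 0.05 in the genotype model was 1.95% on 2R, 1.73% on 2L, where the transgenes lie, 1.13% on 3L, where ash1 lies, 0.997% on X and 0.800% on 3R, beside 1.23% over all genes.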

How the data were processed

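Single-end mRNA reads were aligned by the authors to dm3 with TopHat2 (2.0.9) and counted per gene with HTSeq (0.5.4p3), according to the submitters' notes. The deposited values are raw counts, not normalized, in 1 column per library. The strand and multiple-mapping options of the counting are not given in the sources used here, so overlapping and near-identical genes are uncertain. Symbols and positions are those of BDGP6, which holds 13524 of 14869 identifiers (13699 have a symbol, some from RefSeq synonyms or name columns of the study's tables). Genes were kept by filterByExpr (minimum count 10), scaled by TMM and fitted with edgeR 4.0.16 (R 4.3.3), with 1 coefficient per genotype and all 12 libraries (prior count 0.125). Standard errors (SE) were taken as the absolute log2 fold change over the root of F, and intervals are 95%. Benjamini-Hochberg adjustment was over all genes tested.

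Replicate numbers were used to pair the 2 lines, and the labels do not say that libraries of the same number were prepared together. Same-numbered libraries share a block of library numbers in the labels, and the correlations of their deviations from the genotype means were 0.813, 0.588 and 0.487. Crossing numbers 2 and 3, which share a block, gave 0.555 and 0.456, so within that block the numbers are not told apart. The model with replicate as a block, on the 6 libraries, is therefore given beside the main one. That the blocks are sequencing runs is an inference. P-values measure the spread between RNA preparations, which in the genotype model includes the differences between library-number blocks. Replicates differed by more than sampling noise, so none was a copy.

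Alternatives were RLE factors, DESeq2 1.42.0, limma-voom 3.58.1 on all genes, no filter, only the 6 libraries, the replicate block, the library-number block as a covariate, and leaving out each library. Named are ash1, sad, Tep1 and CG33465, each gene called in the main, paired or library-number block model, the 10 genes per direction with the smallest main p among those whose libraries do not overlap, and from each list the members past an unadjusted p below 0.05 or with the smallest p. Of 277 list entries 252 were matched, and the rest were not analysed here. Members, lists and tests were chosen with earlier results of these data known, and the lists of thioester-containing proteins, lipocalins, ribosomal, respiratory and mitochondrial genes and the 50 kb window (50000 bp) were chosen after values were seen. The procedures were tested on simulated data. Pairs of libraries were compared on log2 CPM with a prior count of 2. Intervals and floors of counts cover counting error only.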

Additional observations from a re-analysis of the deposited data

How the results depend on the processing

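The number of genes at an adjusted p below 0.05 moved from 0 to 3 higher and 2 lower in ΔBAH with the DESeq2 Wald test, to 1 and 1 without the filter and in limma-voom with all genes, and to 3 and 2 with the replicate block. With the library-number block as a covariate it was 2 and 1 in 12 libraries (w, CG34141 and RluA-1, without CYLD and Cyp4p1). In the 6 libraries it was 4 and 2 (the 5 genes of the paired model and St3). Leaving out 1 library gave 0 higher and 0 to 1 lower, the 1 being RluA-1 without ASH1 WT replicate 1. Past 2-fold at an unadjusted p below 0.01, limma-voom gave 19 higher and 29 lower, DESeq2 gave 22 lower, and the library-number block in 6 libraries gave 14 higher and 22 lower. Leaving out 1 library gave 4 to 10 higher (5 without ASH1 WT replicate 2, 4 without ΔBAH replicate 2) and 7 to 21 lower (8 without ASH1 WT replicate 3, 21 without ΔBAH replicate 1, 7 without ΔBAH replicate 3). Genes with an interval within 2-fold were 47.4% with no filter and 37.6% in limma-voom, both of which kept low genes, and 53.4% to 58.2% with 1 library left out. The log2 fold change of ash1 lay between -0.60 and 0.03 with 1 library left out. It was 0.03 without ΔBAH replicate 1, and -0.60 without ASH1 WT replicate 1 or without ΔBAH replicate 2. Leaving out replicate 1 of either line takes a library of the first block from 1 side only. The cause of the moves listed here, that of ash1 included, was not tested. Of 305 alternative values of the 22 other named genes, 281 kept direction and side of the threshold, 24 passed the threshold with the same direction, and 0 reversed. Most of these genes were named because their libraries did not overlap or because a model called them. Their kept directions were therefore largely fixed by that choice and are no sign of robustness. The replicate block (pairing) changed the calls of w, RluA-1, CG34141, CYLD and Cyp4p1 and no other call of a named gene. Depth limits the statements on genes with fewer than about 10 counts per library.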

Other observations

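Genes of ribosomes and of the mitochondrial respiratory chain were looked at after values were seen. In the paired model, 20 of 78 cytoplasmic ribosomal protein genes were lower and 1 was higher in ΔBAH at an unadjusted p below 0.05 (all genes, 5.71% and 4.79%), and the list median was -0.06. RpL38 had 671, 492 and 460 CPM in ASH1 WT and 536, 360 and 385 CPM in ΔBAH, a log2 fold change of -0.35 (standard error, SE, 0.07, adjusted p of 0.14 in edgeR). RpL41 had -0.40 (SE 0.08) and RpL22, the exception, had 0.26 (SE 0.07). Of the 12 mitochondrially encoded protein genes, 6 were lower and 1 was higher at the same threshold, with a median of -0.23. The ATP synthase gene mt:ATPase6 had 2292.7, 1763.8 and 1621.3 CPM in ASH1 WT and 2073, 1151.8 and 931.6 CPM in ΔBAH, and mt:ND5 had 0.27 (SE 0.08). Of 61 nuclear-encoded respiratory chain genes, 6 were lower and 2 higher, near the share over all genes (10.5% in either direction), with ND-MLRQ at -0.66 (SE 0.14). No member of the 3 lists passed an adjusted p below 0.05 in the paired model, and with 1 library left out the medians of the ribosomal and respiratory lists took both signs (-0.48 to 0.40 and -0.67 to 0.59), while that of the mitochondrial list was -0.28 to -0.08.

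Log2 fold changes also moved with exon length. In the paired model the median log2 fold change was -0.119 over 157 genes with less than 500 bp of exons, -0.06 from 500 to 1000 bp, and 0.033 over 1451 genes with 4000 bp or more. At an unadjusted p below 0.05, 0 of the shortest genes were higher and 16 lower, and 124 of the longest were higher and 50 lower. The part of length in the values of the ribosomal, respiratory, Trithorax group and ASH1 partner lists was not tested.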
